A study of Caenorhabditis elegans with 6 samples.

Results

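The ugt genes of Caenorhabditis elegans, which encode the UDP-glucuronosyltransferases, were described in whole-animal messenger RNA of L4 larvae. Members were all genes whose WBcel235 symbol is ugt- followed by a number. The annotation held 67 such genes, 65 of which were paired by sequence name with a gene of the count table (19512 genes in all). ugt-10 and ugt-27 were not analysed here. Each library came from a pool of about 10000 wild-type (N2) worms. Feeding began at the L1 stage and lasted 28 hours. The food in the elt-2 RNAi group was bacteria producing double-stranded RNA of that gene, and in the control group bacteria with the vector alone. Both groups were grown on plates with IPTG and ampicillin. There were 3 libraries in each group, labelled A, B and C, described by the submitters as biological triplicates. The product of elt-2 is an intestinal GATA factor, and the design asked which genes need it in L4 animals. The libraries labelled elt-2 RNAi are also called the labelled RNAi libraries, and values of a group stand in the order A, B, C.

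UDP-glucuronosyltransferases sit in the membrane of the endoplasmic reticulum and move a sugar from a UDP-sugar onto a small hydrophobic molecule, which becomes more soluble and can be exported. This is the second phase of detoxification, after oxidation by cytochrome P450 enzymes and beside conjugation to glutathione, and it also acts on bile pigments and steroid hormones in mammals. In worms the intestine is a main site of detoxification, and nematode members of the family can use glucose as well as glucuronic acid as the sugar. The members resembled each other in size. Their longest coding sequences ran from 482 to 557 residues, with a median of 529.

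The target of the RNAi went against the labels. Its counts were 233, 48 and 78 under the control label and 689, 111 and 3070 under the elt-2 RNAi label. The log2 fold change was 4.60 (SE 1.16, edgeR adjusted p 0.0395), and the exact permutation p (two-sided) was 0.1, the lowest that 3 against 3 libraries can reach. The call was kept in 4 of the 6 fits that each left out 1 library. It was lost without control A or elt-2 RNAi C (edgeR adjusted p up to 0.135), and the sign was positive in all fits. Directions below therefore compare labels only and say nothing of the effect of losing elt-2. Total counts ranged from 16568515 to 35047530, with all libraries labelled elt-2 RNAi deeper than all labelled controls, and TMM factors, which scale each library for its composition, were highest in control A (3.47) and lowest in elt-2 RNAi C (0.491). The labels gave no preparation batch. Markers of intestine, muscle, neurons and germ line were all read in every library, as a whole-animal sample should give. CPM is a count divided by the TMM-scaled library size and multiplied by 1000000. Reads sample the 3-prime ends of transcripts, so CPM was not divided by length when genes were ranked.

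As a family the ugt genes took little of the RNA, and their share of the counts was lower in all 3 libraries labelled elt-2 RNAi. They held 6359, 3855 and 2621 counts for the labelled controls and 1057, 1991 and 1306 for the labelled RNAi libraries. This was 0.0384%, 0.0168% and 0.0108% of all counts against 0.00357%, 0.00662% and 0.00373%. After TMM scaling the gap was smaller. The summed level was 112, 123 and 111 CPM for the labelled controls and 51.3, 104.4 and 76.0 CPM for the labelled RNAi libraries, with elt-2 RNAi B just under the controls. That separation rested on ugt-50. Without it the sums were 67.9, 40.8 and 98.1 CPM against 36.4, 92.6 and 63.8 CPM, and the groups overlapped. In whole animals, fewer cells of a type and less RNA in each cell cannot be told apart. The number of members with at least 1 count was 63, 56 and 58 in the labelled controls and 46, 55 and 44 in the labelled RNAi libraries. Over all genes this number was also lower in the labelled RNAi libraries, at 16454, 15890 and 15114 against 14955, 14534 and 14326. Most members were rare. Their median total over the 6 libraries was 92 counts, against 184 for all genes, and 29 of the 65 had no count in at least 1 library.

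Of the 65 members, 37 passed the filter on low counts and were tested, and 28 did not pass. The filter asked for about 10 counts, scaled to library size, in at least 3 libraries. For 9 of the 37 only the labelled controls reached it (ugt-1, ugt-2, ugt-11, ugt-20, ugt-24, ugt-43, ugt-51, ugt-54 and ugt-60), and for none only the labelled RNAi libraries, so that a lower value in the labelled RNAi libraries was favoured for those 9 by the filter itself. Among the tested members 26 had negative and 11 positive log2 fold changes of labelled elt-2 RNAi over labelled control. Only 3 were called at an edgeR adjusted p under 0.10, all of them lower (ugt-50, ugt-51 and ugt-54), and ugt-51 and ugt-54 are among those 9. Genome-wide 28.9% of the 11474 tested genes were called, 15.9% as lower and 13% as higher. The ugt calls, at 8.11% of the tested members, were below the background in that direction, a difference that was not tested. No member was called higher by edgeR or by DESeq2, and none had an unadjusted p under 0.05 in that direction. On the lower side 4 members had one, the called genes and ugt-2. The labelled groups did not overlap for 5 members, ugt-2, ugt-24, ugt-51, ugt-54 and ugt-58, all lower, against 24.2% of all tested genes on that side and 22.5% on the other. The median log2 fold change was -0.34, beside -0.12 for all tested genes.

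**Figure D1:**
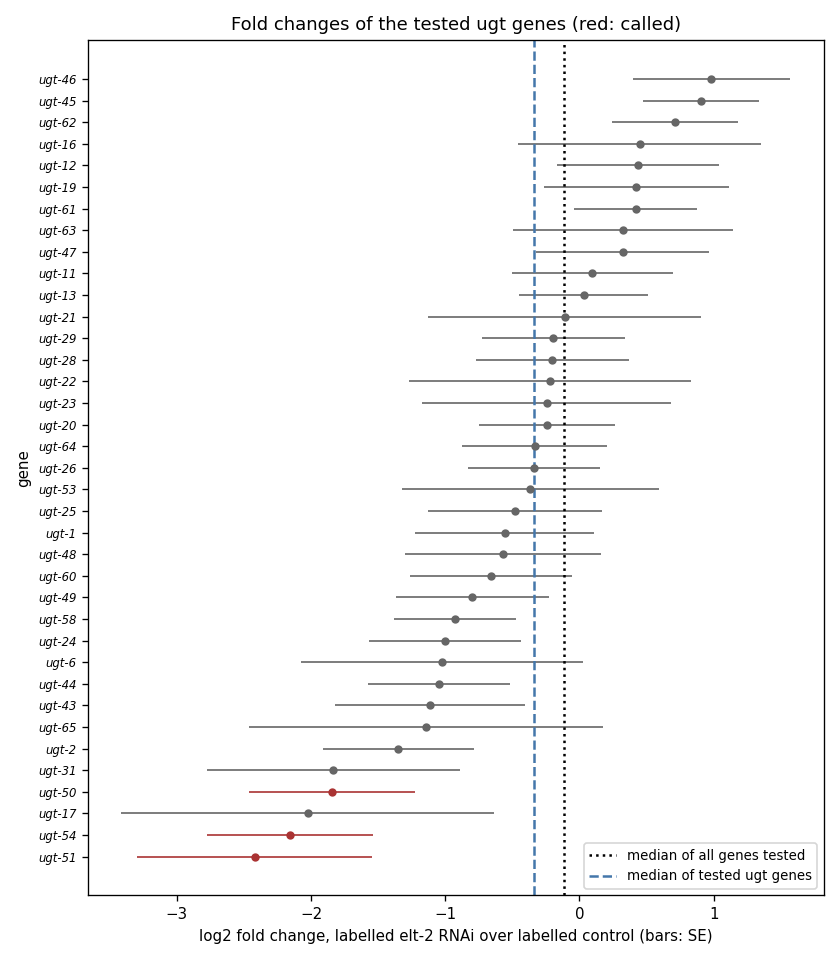
Log2 fold change of labelled elt-2 RNAi over labelled control for the 37 tested ugt genes, with bars of 1 SE and the 3 called genes in red. The dashed line marks the ugt median (-0.34) and the dotted line the median of all tested genes (-0.12). The genes run from -2.42 (ugt-51) to 0.98 (ugt-46).

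The number of members below 0 depended on scaling. With library size alone all 37 tested members had negative values, 21 were called lower, and the ugt median was -1.96, but the median of all genes had moved as well, to -1.77. In that fit 52.4% of all tested genes were called lower. Relative to the median gene 25 of 37 members were lower in the TMM fit and 24 of 37 with library size alone. The ugt median lay 0.22 below that of all genes in the first and 0.19 below it in the second. Over the other fits its place varied with the libraries. It lay 0.72 below without elt-2 RNAi B, 0.49 below without control B and 0.06 above without control C, and among the 15 members with at least 10 counts in every library it was -0.07, the same as for all genes at this precision, with 8 of 15 negative.

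ugt-50 (T07C5.1, WBcel235 chromosome X, 12691573 to 12695652, plus strand) was the most abundant member. It had 2487, 2579 and 314 counts for the labelled controls and 307, 225 and 210 for the labelled RNAi libraries. Its levels were 43.6, 82.5 and 13.4 CPM against 14.9, 11.8 and 12.2 CPM. Control A and B stood far above the other 4 libraries, and control C lay among the labelled RNAi libraries. The means were 46.5 ± 34.6 CPM and 13.0 ± 1.68 CPM (SD, n = 3). The log2 fold change was -1.84 (SE 0.62, edgeR adjusted p 0.0772). ugt-50 alone made up 39.1%, 66.9% and 11.98% of the ugt counts for the labelled controls. Of those in the labelled RNAi libraries it made up 29.0%, 11.3% and 16.1%. It shares 424 bases with nhr-26 on the other strand, which had at most 1 count in any library.

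Control A and B also stood above the other 4 libraries for the listed hypodermis and molt markers other than rol-6. This order was common, with 18.3% of all tested genes against 8.11% of the tested ugt genes (ugt-24, ugt-44 and ugt-50). The 7 hypodermis and molt markers (dpy-7, rol-6, sqt-3, noah-1, noah-2, mlt-10 and mlt-11) summed to 210 and 308 CPM in control A and B and to 14.2 CPM in control C, against 13.2 to 17.3 CPM in the labelled RNAi libraries. Of the 5 tested, 4 were called lower, none was at 0 in any library, and rol-6 alone was lowest in control A and B. Collagen genes outside this list went both ways. For example, col-10 was highest in control A and B (4.51, 5.56 and 0.978 CPM against 0.388, 1.89 and 1.40 CPM). In contrast, sqt-1 was lowest there (0.491, 2.27 and 13.0 CPM against 15.1, 15.6 and 18.8 CPM). The part of all these genes in the ugt-50 result was not tested. The call for ugt-50 was kept in 1 of the 6 fits with 1 library left out, the one without control C, and the other 5 gave edgeR adjusted p from 0.123 (without control A) to 0.243 (without elt-2 RNAi C).

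**Figure D2:**
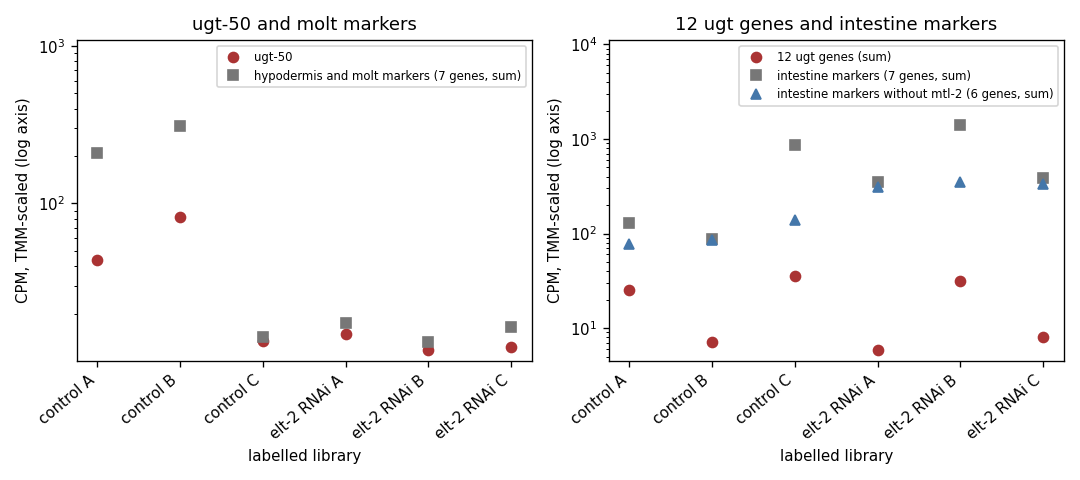
Level of ugt-50 beside the summed level of 7 hypodermis and molt markers (left), and summed level of 12 ugt genes beside that of 7 intestine markers and of 6 without mtl-2 (right), in CPM on log axes, for each labelled library. On the left control A and B are high in both series. On the right the ugt genes are high in control A, control C and elt-2 RNAi B, an order that the intestine markers have neither with mtl-2 (squares) nor without it (triangles).

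The other called members were rare. ugt-54 (T25B9.7, chromosome IV, 10761698 to 10764415, plus strand) was read 62, 13 and 15 times for the labelled controls and 3 times in each library labelled elt-2 RNAi. Its levels were 1.09, 0.416 and 0.638 CPM against 0.146, 0.157 and 0.175 CPM. The groups did not overlap, and the libraries labelled elt-2 RNAi were all at the floor of 3 counts. The log2 fold change was -2.15 (SE 0.62, edgeR adjusted p 0.0533). It kept its call without control B or control C and lost it without control A or any library labelled elt-2 RNAi, where edgeR adjusted p ran from 0.131 to 0.204.

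ugt-51 (C03A7.11, chromosome V, 5175020 to 5177309, minus strand) was read 109, 11 and 14 times for the labelled controls and 1, 6 and 3 for the labelled RNAi libraries. In CPM this was 1.91, 0.352 and 0.596 against 0.0485, 0.315 and 0.175. Control A was the highest by far, and control B lay only just above elt-2 RNAi B. The log2 fold change was -2.42 (SE 0.88, edgeR adjusted p 0.0907), and without control A it was -1.49 with an edgeR adjusted p of 0.281. The call was also lost without each library labelled elt-2 RNAi.

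ugt-2 (AC3.8, chromosome V, 10398801 to 10401307, plus strand) missed the threshold with no overlap between the groups. It had 1.0, 0.544 and 0.638 CPM for the labelled controls and 0.194, 0.262 and 0.407 CPM for the labelled RNAi libraries (log2 fold change -1.35, SE 0.56, edgeR adjusted p 0.124). ugt-58 was more abundant, at 4.05, 1.95 and 1.96 CPM against 1.07, 1.62 and 1.51 CPM (log2 fold change -0.93, SE 0.46, edgeR adjusted p 0.175). For both genes the lowest control and the highest library labelled elt-2 RNAi lay close together.

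The 10 members with the highest mean CPM were ugt-50, ugt-47, ugt-46, ugt-22, ugt-49, ugt-45, ugt-12, ugt-63, ugt-62 and ugt-44, and the same 10 led when CPM was divided by exon length. Apart from ugt-50 none was called. Their order by mean fell from 29.7 CPM for ugt-50 to 7.98 CPM for ugt-47 and 2.25 CPM for ugt-44, but neighbours in that order overlapped in their ranges over the libraries. They did not share 1 order of the libraries.

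**Figure D3:**
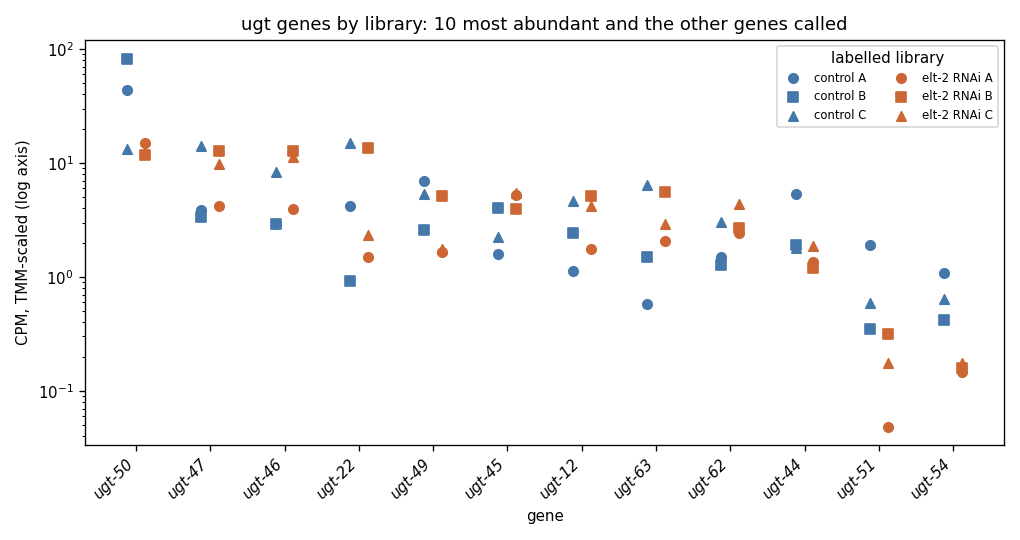
Level of the 10 most abundant ugt genes and of the called genes ugt-51 and ugt-54 in CPM on a log axis, 1 point for each labelled library (blue, control; orange, elt-2 RNAi; circle, square and triangle for A, B and C). The groups overlap for all genes shown other than ugt-51 and ugt-54.

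A first set of abundant members was low in control A and B. ugt-46 (B0310.5, chromosome X, 525928 to 530289, minus strand) had 2.93, 2.94 and 8.34 CPM for the labelled controls and 3.93, 12.8 and 11.3 CPM for the labelled RNAi libraries. ugt-47 (R04B5.9, chromosome V, 10096305 to 10098597, minus strand) had 3.88, 3.33 and 14.1 CPM against 4.17, 12.6 and 9.77 CPM. ugt-62 and ugt-63 had the same split, with control A and B under the other 4 libraries. The log2 fold changes of these genes ran from 0.32 (ugt-47) to 0.98 (ugt-46), positive with TMM and DESeq2, negative for all of them with library size alone, and negative for ugt-47 and ugt-63 also without the most abundant 3% of genes. None was called over the 6 libraries, with edgeR adjusted p from 0.247 to 0.784. Without control C, whose levels lay within or above the range of the labelled RNAi libraries, all were called higher (log2 fold change 1.28 to 1.87, edgeR adjusted p 0.0646 to 0.0982). These genes were grouped by that split after the values were seen. Leaving out control C fixes a higher direction for such genes, so that fit is a description and no independent evidence. Across all tested genes 15.5% had control A and B under the other 4 libraries, against 10.8% of the ugt genes. ugt-12 (1.12, 2.43 and 4.68 CPM against 1.75, 5.14 and 4.19 CPM) came near this split.

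ugt-45 (Y37E11AR.5, chromosome IV, 3748210 to 3751101, minus strand) was the member closest to a rise by p. It had 1.58, 4.0 and 2.25 CPM for the labelled controls and 5.24, 3.93 and 5.47 CPM for the labelled RNAi libraries. Control B lay just above elt-2 RNAi B, and the other controls were lower than all libraries labelled elt-2 RNAi. The log2 fold change was 0.90 (SE 0.43, edgeR adjusted p 0.164), and it was called without control B (1.29, edgeR adjusted p 0.0844). With library size alone the value was -0.57.

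ugt-44 (F01D4.2, chromosome IV, 10469741 to 10471899, plus strand) stood out in control A. It had 5.39, 1.92 and 1.79 CPM in the labelled controls, and 1.36, 1.21 and 1.86 CPM for the labelled RNAi libraries. The log2 fold change was -1.05 (SE 0.53, edgeR adjusted p 0.185). It was called lower with library size alone and without the most abundant 3% of genes.

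The most frequent order of the libraries crossed the labels. For 12 of the 37 tested members (32.4%) control A, control C and elt-2 RNAi B were all above control B, elt-2 RNAi A and elt-2 RNAi C, an order found in 8.08% of all tested genes. This grouping was chosen after the values were seen, and it is given as a description. The 12 genes were ugt-6, ugt-17, ugt-21, ugt-22, ugt-23, ugt-28, ugt-31, ugt-48, ugt-49, ugt-53, ugt-64 and ugt-65. Their summed level was 25.5, 7.16 and 35.9 CPM for the labelled controls and 5.92, 31.8 and 8.09 CPM for the labelled RNAi libraries. Control B and elt-2 RNAi B thus stood apart from the other libraries of their labelled groups. More widely, 26 of the tested members had their lowest labelled control level in control B (70.3%, against 34.0% of all tested genes), and for 22 elt-2 RNAi B was the highest of its group (59.5%, against 36.1%).

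**Figure D4:**
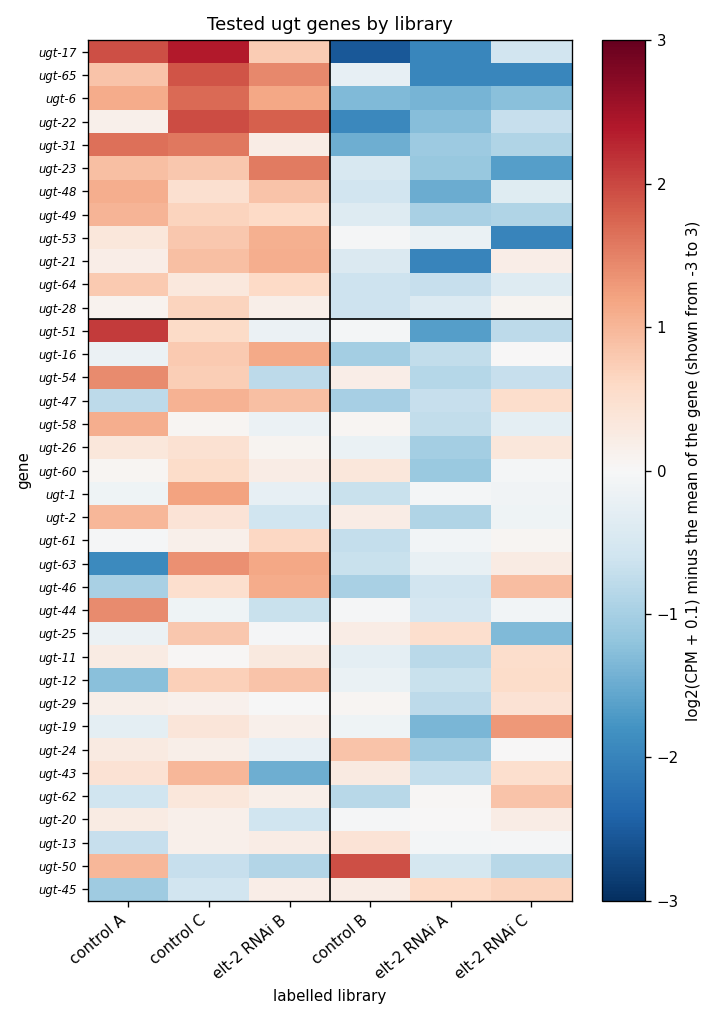
Level of each tested ugt gene in each labelled library as log2(CPM + 0.1) minus the mean of the gene over the 6 libraries, with red above and blue below that mean. The vertical line parts control A, control C and elt-2 RNAi B from the other 3 libraries, and the horizontal line sets off the 12 genes that were above in the first 3 libraries.

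ugt-22 (C08F11.8, chromosome IV, 13639260 to 13644567, plus strand) was the most abundant of the 12. It had 240, 29 and 354 counts for the labelled controls and 31, 257 and 40 for the labelled RNAi libraries. In CPM this was 4.21, 0.927 and 15.1 against 1.5, 13.5 and 2.33. The levels spanned 16.2-fold among the labelled controls and 8.96-fold among the labelled RNAi libraries, a spread far wider than the difference between the groups (log2 fold change -0.22, SE 1.05, edgeR adjusted p 0.89). ugt-49 (AC3.2, chromosome V, 10372321 to 10374261, plus strand) varied less, with 6.91, 2.56 and 5.36 CPM against 1.65, 5.14 and 1.75 CPM.

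Rarer members had the same order with wider gaps. ugt-17 (C08B6.1, chromosome V, 10102592 to 10104964, minus strand) was read 120, 0 and 69 times for the labelled controls and 1, 17 and 5 for the labelled RNAi libraries. ugt-65 had 34, 7 and 31 counts against 0, 18 and 0. For both the log2 fold change was negative with a large error (-2.02, SE 1.39, and -1.14, SE 1.32), and neither was called by edgeR (adjusted p 0.305 and 0.54). ugt-65 contains the collagen gene col-130 on the other strand, and strand use in the counting was not stated. col-130 was highest in control B, where ugt-65 was lowest among the controls. ugt-6 had 1.30, 0.160 and 2.0 CPM against 0.146, 1.36 and 0.175 CPM. ugt-23 reached its highest level in elt-2 RNAi B (2.41 CPM) and had 0.291 and 0.175 CPM in elt-2 RNAi A and C.

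When both B libraries were left out, 9 members were called lower (ugt-5, ugt-6, ugt-17, ugt-22, ugt-23, ugt-31, ugt-49, ugt-51 and ugt-65) and none higher by edgeR (1 had an unadjusted p under 0.05 in that direction), out of 39 tested, where 8.36% of all tested genes were called lower. The ugt median was then -1.10, beside -0.22 for all genes. Of the genes called over the 6 libraries 1 was called here as well, ugt-51. The others called here all had the order that crossed the labels, which was chosen after the values were seen. Leaving out the B libraries fixes a lower direction for genes with that order, so this fit is a description and no independent evidence.

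The intestine markers also differed between libraries of 1 labelled group. The 7 that were found (ges-1, vha-6, act-5, ifb-2, pho-1, mtl-2 and elt-7) summed to between 88.1 and 855 CPM in the labelled controls and between 350 and 1406 CPM in the labelled RNAi libraries. 1 was called lower (elt-7) and 1 higher (act-5), and none was at 0 in any library. Most of the sum in control C and elt-2 RNAi B was the metallothionein gene mtl-2 (52.3, 3.39 and 717 CPM against 36.2, 1053 and 58.7 CPM). Without it the sums were 77.6, 84.7 and 138 CPM against 313, 353 and 332 CPM, and all labelled controls lay below all labelled RNAi libraries, a sum chosen after the values were seen. That separation rested on act-5, which had at least 294 CPM in each labelled RNAi library and at most 102 CPM in the labelled controls. Among the other markers in that sum, the groups overlapped for ifb-2, vha-6, ges-1 and pho-1. Only elt-7 had no overlap, and it was lower in the labelled RNAi libraries. Of the 7 markers 1 had the order of the 12 ugt genes, the esterase gene ges-1, with 7.91, 2.43 and 6.30 CPM for the labelled controls and 1.41, 4.61 and 1.34 CPM for the labelled RNAi libraries. act-5, ifb-2, vha-6, pho-1, elt-7 and mtl-2 did not have it. The part of these markers in the ugt levels was not tested. Muscle and excretory cell markers had no calls, neuron markers had 3 of 4 lower, and germ line markers had 1 of 5 higher.

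Spread within the labelled groups was wide among the tested members. Over the 33 tested members with counts in every library, the median ratio of the highest to the lowest library was 2.70 among the controls and 2.80 among the labelled RNAi libraries. For all tested genes these ratios were 2.18 and 1.77. The comparison was not matched for level, and counting error is larger for rare genes. Median mean level was 1.05 CPM for the tested ugt genes and 4.51 CPM for all tested genes. The widest among the controls were ugt-22, ugt-31 (14.7-fold) and ugt-6 (12.5-fold), all of them among the 12 genes, followed by ugt-63 (11.2-fold). ugt-23 had the widest among the labelled RNAi libraries (13.8-fold).

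Many rare members were at the floor, set at no more than 3 counts in every library of a group, in the labelled RNAi libraries. This was so for 18 members in that group only, for none in the labelled controls only, and for 4 in both. The libraries labelled elt-2 RNAi had more reads but lower TMM factors, so that 1 count stood for 0.0485 to 0.0582 CPM there and for 0.0175 to 0.0425 CPM in the labelled controls. A gene of equal CPM in both groups thus fell to the floor more easily in the labelled RNAi libraries. The share of all genes at this floor is not given here, so these counts are no result about the family. ugt-54 was the single tested gene among the 18. ugt-57 (F01E11.1, chromosome X, 6991727 to 6994162, plus strand) was read 78, 20 and 1 times for the labelled controls and never in the other libraries, which made it at least 4.30-fold lower there against a floor of 3 counts in each library. Control A held 78.8% of these counts, and without it the bound was 2.14-fold. The low-count filter removed it, and without that filter it was called lower (edgeR adjusted p 0.0455). ugt-18 had 50, 3 and 0 counts against none, at least 2.04-fold lower by the same floor, but 94.3% of its counts came from control A, and without that library its control level was under the floor. ugt-32 and ugt-34 were also without a count in the labelled RNAi libraries, but their control levels were under the floor.

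The other members at the floor had 1 to 5 counts over the libraries labelled elt-2 RNAi. The ratio of pooled control to pooled elt-2 RNAi counts, scaled by pooled library size, was 6.11 for ugt-4 (exact 95% interval 2.24 to 23.3), 4.68 for ugt-55 (1.87 to 15.1) and 11.7 for ugt-59 (1.90 to 482). For ugt-8, ugt-9, ugt-14, ugt-39 and ugt-56 the interval also lay above 1, with lower ends from 1.12 to 1.20. For ugt-3, ugt-7, ugt-33, ugt-37 and ugt-40 it included 1. These intervals use counts pooled over the libraries of a group, so they leave out variation between libraries. They also take reads as independent, although reads carried no molecular identifiers and may be PCR copies. Control A held 26, 30 and 18 of the 48, 46 and 23 control counts of ugt-4, ugt-55 and ugt-59. With no filter none of the genes with an interval above 1 named here was called. Their edgeR adjusted p ran from 0.125 (ugt-4) to 0.450 (ugt-39).

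Most of the family lies on chromosome V, with 42 of the 67 annotated genes. Chromosome IV held 12, I held 5, X held 4, III held 3 and II held 1. With a gap of at most 5 kb between neighbours, 37 genes fell into 12 clusters and 30 stood alone. The largest cluster, of 8 genes (chromosome V, 4887165 to 4911399), runs from ugt-12 to ugt-13. Of its members only ugt-11, ugt-12 and ugt-13 were tested. Clustered genes were rarer, with a median total of 53 counts against 103.5 for single genes. None of the 16 tested clustered members was called, and all 3 calls were among the 21 tested single genes, a difference that was not tested. Reads that match more than 1 place are lost when only unique matches are counted. Whether clustered neighbours are alike enough for this was not examined, so the levels of clustered members are uncertain. Neighbours could differ. ugt-47 and ugt-17 form 1 cluster, and control B had no count for ugt-17 while ugt-47 was among the most abundant members there. Of the 65 members 13 overlapped another annotated gene, 8 of them tested.

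Lists of the study held several members. ugt-22, ugt-23, ugt-25, ugt-39, ugt-44 and ugt-47 were on its list of age-regulated genes bound by ELT-2, and none of these was called here (ugt-39 was not tested). ugt-22 was also on its list of genes changed at the L1 stage. ugt-6, ugt-17, ugt-22, ugt-23, ugt-31 and ugt-65 were on its L4 list, chosen on these same libraries and so no independent evidence. All 6 were among the 12 genes whose order crossed the labels.

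Genes for the supply and use of the sugar donor were examined beside the enzymes. The list held sqv-1, sqv-4, sqv-7, gale-1, rml-1, pgm-1, gpi-1, hxk-1, hxk-2, hxk-3 and D1005.2, and not all of these make the donor. UDP-glucuronic acid is made from glucose by way of UDP-glucose, and 2 of the 11 listed genes were called, both lower (18.2%, near the 15.9% of all tested genes). sqv-4, the UDP-glucose dehydrogenase that makes UDP-glucuronic acid, had 28.4, 14.7 and 25.4 CPM for the labelled controls and 9.03, 11.6 and 6.92 CPM for the labelled RNAi libraries (log2 fold change -1.31, SE 0.40, edgeR adjusted p 0.0607). sqv-7, a transporter that carries UDP-glucuronic acid into the Golgi, had 11.1, 6.91 and 7.19 CPM against 2.38, 4.19 and 2.85 CPM (log2 fold change -1.42, SE 0.38, edgeR adjusted p 0.0458). In both genes the labelled groups did not overlap. sqv-4 kept its call in 1 of the 6 fits with 1 library left out, the one without control B, and sqv-7 in 4, losing it without elt-2 RNAi A or C. The sqv genes are best known for making glycosaminoglycan chains. The median log2 fold change of the 11 genes was -0.65.

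Among 12 listed regulators of detoxification and stress responses 11 were tested, 6 were called lower (54.5%, against 15.9% of all tested genes) and 1 (elt-2) higher (9.09%, against 13%). The list was chosen with earlier results of these data known, and the difference from all genes was not tested. It held the RNAi target elt-2 itself, and elt-7, which is also among the intestine markers. nhr-8, a nuclear hormone receptor of xenobiotic resistance, had 4.49, 1.82 and 1.49 CPM for the labelled controls and 0.582, 0.524 and 0.465 CPM for the labelled RNAi libraries (log2 fold change -2.31, SE 0.55, edgeR adjusted p 0.035). The others were mdt-15, a Mediator subunit (-1.24), the zinc finger factor pqm-1 (-1.45), the GATA factor elt-7 (-1.44), the nuclear hormone receptor nhr-86 (-1.21) and the hypoxia factor hif-1 (-0.87), with edgeR adjusted p from 0.0566 to 0.0962. nhr-8 kept its call in 4 of the 6 fits with 1 library left out, losing it without elt-2 RNAi B or C. elt-7 kept it in 3 (lost without each library labelled elt-2 RNAi), mdt-15 in 2 (without control B or C), pqm-1 and nhr-86 in 1 (without control C) and hif-1 in none, and hif-1 also missed the threshold with DESeq2 (adjusted p 0.105). With the replicate letter as a block nhr-8 kept its call (edgeR adjusted p 0.0935). The other genes called lower lost theirs (edgeR adjusted p 0.148 to 0.229). skn-1, the main oxidative stress factor, was not called (-0.13, SE 0.36, edgeR adjusted p 0.803), nor were daf-16, nhr-66 and aha-1, and ahr-1 was not tested.

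Other detoxification families were counted in the same fit, where 15.9% of all tested genes were called lower and 13% higher. Of 72 cyp genes, the cytochrome P450 enzymes, 26 were tested, with 3 called lower and 3 higher (11.5% each, near those shares). Of 40 gst genes, the glutathione S-transferases, 19 were tested, with none lower and 6 (31.6%) higher by edgeR (none had an unadjusted p under 0.05 on the lower side). Of 22 pgp and mrp genes, which encode export pumps, 16 were tested, with 1 (6.25%) lower and none higher by edgeR (1 had an unadjusted p under 0.05 on the higher side). The median log2 fold changes were -0.86, 0.99 and -0.02, beside -0.34 for the ugt genes. The difference between families was not tested.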

How the data were processed

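3SEQ libraries (barcoded, from poly-A RNA, enriched for 3-prime ends) were made by the authors, whose deposited table gives unnormalized counts of reads for each gene, in 1 column a library. The submitters' processing notes name Bowtie 0.12.7, and the study used uniquely mapped reads. The genome build, annotation, counting program and use of strand are not given in the sources used here. The study scaled by total mapped reads and tested with rank products, which were not run here.

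Sequence names were paired with WBcel235 (Ensembl release 115), which gave 19081 of 19512 genes (97.8%) a single match. The other 431 genes kept their sequence names in the tests. Genes were filtered with filterByExpr, scaled with TMM and tested with the quasi-likelihood test of edgeR 4.0.16 (R 4.3.3), two-sided, with the labelled group as the only term and Benjamini-Hochberg adjustment over the 11474 genes tested. Genes under an adjusted p of 0.10 were called. SE is the log2 fold change over the square root of F. Alternatives included DESeq2 1.42.0.

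Members and lists were chosen with earlier results of these data known. Named members were those called, those with groups that did not overlap and an absolute log2 fold change of at least 2, the 10 with the highest mean CPM, and those at the floor in 1 labelled group. Others named were chosen after their values were seen.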

Additional observations from a re-analysis of the deposited data

How the results depend on the processing

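The number of ugt genes called lower moved from 3 to 21 with library size alone, to 8 without the most abundant 3% of genes, to 1 with at least 10 counts in every library (15 tested), to 9 without both B libraries, and to 0 at an adjusted p under 0.05. It was 3 with DESeq2, with no filter (ugt-57 in place of ugt-51) and at 2-fold or more. Over the 6 fits that each left out 1 library it ranged from 0 to 5. It was 5 without control B or control C, 1 (ugt-65) without elt-2 RNAi B, and 0 when any other library was left out, where 2 to 4 had an unadjusted edgeR p under 0.05 on the lower side. Genes called higher ranged from 0 to 5 in these fits, with 1 without control B and 5 without control C, and were 0 in all other alternatives. The ugt median ranged from -0.95 to -0.10 in these fits, and was -1.96 with library size alone, -0.87 without the most abundant 3% of genes and -1.10 without both B libraries. No named member turned direction with a call. Same-lettered libraries did not deviate together (correlations across genes of -0.20, -0.55 and -0.05 for A, B and C), so the letters were not taken as pairs. With the replicate letter as a block the ugt median lay 0.42 below that of all genes, 0 ugt genes were called in either direction by edgeR, and 1 had an unadjusted p under 0.05. Over all tested genes 3312 were called, 6445 with library size alone, 1587 at an adjusted p under 0.05, 1219 with the block, 1863 without both B libraries, and 465 to 4290 without 1 library. The cause of these moves was not tested. Low counts kept 28 of 65 members out of the test, and all 65 were tested with no filter.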
